A study of Mus musculus with 6 samples.

Results

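Interferons signal through paired receptor chains at the cell surface. Type I interferons bind Ifnar1 with Ifnar2, and interferon gamma binds Ifngr1 with Ifngr2. The chains carry Janus kinases such as Jak1 and Jak2, which phosphorylate STAT proteins. Stat2 joins with Irf9 in the transcription factor complex that acts downstream of type I interferon, and Irf1 is a transcription factor induced by interferon gamma. In tumour cells this pathway is known for raising antigen presentation and for carrying the response to interferon gamma released by T cells.

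The 9 genes Ifngr1, Ifngr2, Ifnar1, Ifnar2, Jak1, Jak2, Stat2, Irf1 and Irf9 were followed through the peaks of accessible chromatin that the authors' deposited table assigns to them by gene symbol. There were 74 such peaks of 214414 in all, and 43 of them were among the 102173 that carry an adjusted p-value. ATAC-seq, in which a transposase tags open DNA, had been done on mouse non-small cell lung cancer organoids, 3 libraries from organoids resistant to immunotherapy and 3 from sensitive ones. The labels name no strain, genotype, driver mutation, age or treatment of either group. They leave unsaid if the libraries of 1 group are separate cultures, and the p-values may therefore reflect technical spread alone. The study concerns acquired resistance, so the comparison asks how open chromatin differs between the resistant and the sensitive cultures. Values are log2 fold changes of resistant over sensitive organoids with their standard error (SE). Their sign rests on the title of the authors' deposited table, and the mean normalized count given for a peak is over all 6 libraries. Values per library and depth were not analysed here, because the names of the 6 library columns match no sample label.

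A peak was called when its adjusted p from the authors' DESeq2 test was under 0.05. The labelled cell type was checked on promoter peaks of marker genes. All 5 epithelial markers (Epcam, Cdh1, Krt8, Krt18 and Krt19) had a promoter peak, with mean counts of 87.2 to 785 in the authors' deposited table. Of the T and B cell markers 3 of 5 had one, with mean counts of 6.81 to 16.4, and of the leukocyte and myeloid markers 2 of 5, with 7.23 to 14.8, while Ptprc, Csf1r and Cd68 had none. Fibroblast markers also had a promoter peak in 5 of 5 cases, with mean counts of 6.79 to 108, the highest at Pdgfra and above that of Epcam, and endothelial markers in 4 of 4, with 6.70 to 29.9. Marker promoters thus did not single out epithelial cells by the presence of a peak. Among the strongest tested promoter peaks of all genes, 13.9% were called lower and 3.58% higher. All 5 epithelial promoters were called lower in resistant organoids, with log2 fold changes of -1.63 to -1.03 in the authors' deposited table. Of the 4 fibroblast promoters tested, that of Pdgfrb was called higher (1.64 ± 0.36 (SE)). The part of these shifts in the values of the interferon genes was not tested. In bulk samples, fewer cells with an open site and a less open site in each cell cannot be told apart. The part of DNA copy number in the counts was not tested either.

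Promoters of some member genes are shown first, as the 250 bases before the RefSeq start on GRCm38.p6, the assembly of mm10, plus strand, 5′ to 3′. They belong to the receptor genes of the chromosome 16 cluster and to the transcription factor genes whose promoter holds a searched motif. Of the genes shown, only Ifngr2 and Ifnar1 had a called promoter peak. Capitals mark matches, on either strand, to the gamma-activated site TTCNNNGAA, a motif of STAT dimers, or to the interferon-stimulated response element, searched as GAAA, any 2 bases and GAAA. No promoter shown holds both, so no matches overlap.
Ifngr2 (chr16:91546809-91547058): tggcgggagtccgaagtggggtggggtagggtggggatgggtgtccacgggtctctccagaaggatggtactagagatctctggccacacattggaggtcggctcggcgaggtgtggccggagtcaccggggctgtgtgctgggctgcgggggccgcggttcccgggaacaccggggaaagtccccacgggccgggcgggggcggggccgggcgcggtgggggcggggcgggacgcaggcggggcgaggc
Ifnar1 (chr16:91484965-91485214): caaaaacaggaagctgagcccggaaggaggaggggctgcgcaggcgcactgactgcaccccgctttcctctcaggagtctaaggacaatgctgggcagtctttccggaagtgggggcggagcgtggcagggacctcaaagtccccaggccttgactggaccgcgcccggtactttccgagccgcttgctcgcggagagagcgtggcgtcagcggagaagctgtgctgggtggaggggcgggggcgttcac
Ifnar2 (chr16:91372533-91372782): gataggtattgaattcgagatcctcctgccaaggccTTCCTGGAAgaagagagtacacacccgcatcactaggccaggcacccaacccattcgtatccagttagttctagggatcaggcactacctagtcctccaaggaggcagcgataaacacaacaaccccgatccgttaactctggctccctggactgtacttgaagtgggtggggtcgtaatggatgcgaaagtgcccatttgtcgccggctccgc
Irf1 (chr11:53769764-53770013): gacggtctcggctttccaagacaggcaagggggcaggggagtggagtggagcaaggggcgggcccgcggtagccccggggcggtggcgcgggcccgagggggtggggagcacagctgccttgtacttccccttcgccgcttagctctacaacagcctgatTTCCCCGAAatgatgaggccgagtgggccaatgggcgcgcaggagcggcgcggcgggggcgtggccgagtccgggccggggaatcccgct
Stat2 (chr10:128270248-128270497): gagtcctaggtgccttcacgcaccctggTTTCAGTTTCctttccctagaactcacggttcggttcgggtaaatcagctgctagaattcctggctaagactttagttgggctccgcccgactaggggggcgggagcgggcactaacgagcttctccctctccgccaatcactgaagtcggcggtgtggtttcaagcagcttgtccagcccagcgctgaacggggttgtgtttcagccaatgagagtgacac

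RefSeq's promoter table held all 9 genes with 11 promoters, 2 each for Irf1 and Irf9. The gamma-activated site letters were found in the promoter of Ifnar2, 214 bases before the start, and in that of Irf1, 90 bases before it. The response element letters were found in that of Stat2, 222 bases before the start. Over all 32851 promoters of the table, 7.02% held the first motif and 2.98% the second. The promoters of Ifngr2 and Ifnar1 held neither in this window. Counts of the dinucleotide CG in these 250 bases were 25 for Ifngr2, 19 for Ifnar1 and 11 for Ifnar2, against a median of 6 over all promoters, and they ranged from 1 in the second Irf9 promoter to 37 for Jak2.

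Among the interferon genes, the called peaks were all lower in resistant organoids and all belonged to 3 neighbouring receptor genes. Of the 43 tested peaks, 6 were called lower and 0 higher by the authors' adjusted p, against 7.34% lower and 5.02% higher among all tested peaks. The 6 comprised 4 peaks of Ifngr2, 1 of Ifnar1 and 1 of Ifnar2, genes that together span 191 kb of chromosome 16. The 33 tested peaks of Ifngr1, Jak1, Jak2, Stat2, Irf1 and Irf9 gave no call in the DESeq2 test, and 4 higher and 6 lower at an unadjusted p under 0.05, beside 9.71% higher and 13.8% lower of all tested peaks at that threshold. Their median log2 fold change was -0.09, against -0.07 for all tested peaks and -0.97 for the 10 tested peaks of the cluster. The remaining 31 of the 74 peaks lay under the count at which the authors' table stops giving an adjusted p, and so have no call.

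**Figure D1:**
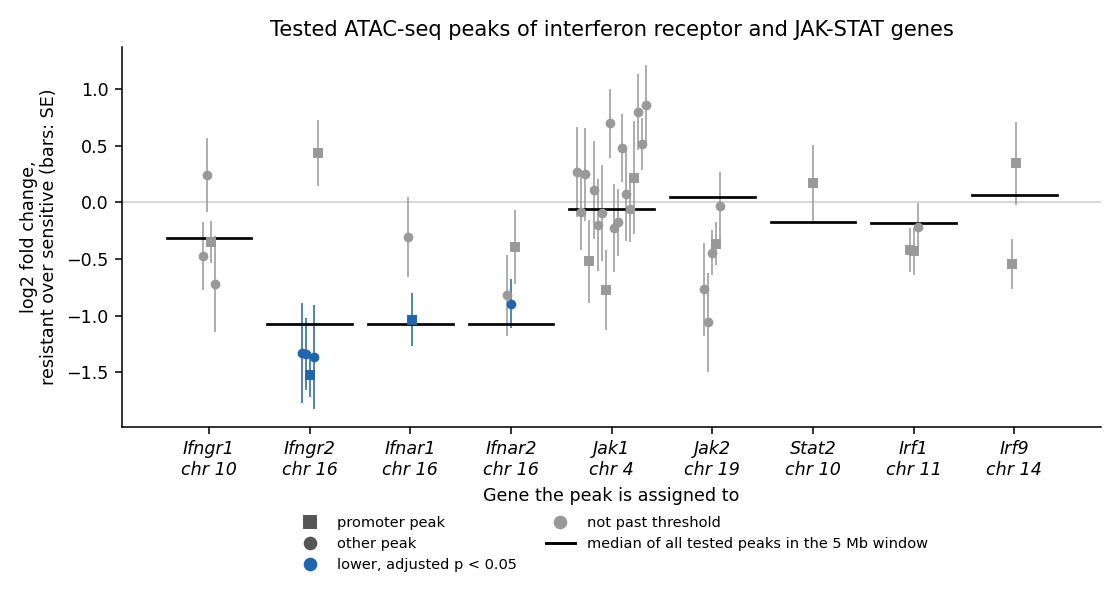
Each point is 1 of the 43 tested peaks, grouped by the gene it is assigned to and ordered by position, with its log2 fold change of resistant over sensitive organoids and its SE on the vertical axis. Black lines give the median of all tested peaks in the gene's 5 Mb window, which is -1.08 for the 3 genes of chromosome 16 and between -0.31 and 0.07 for the others.

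Ifngr2, the accessory chain of the interferon gamma receptor that binds Jak2, had the most called peaks. Its promoter peak, at chromosome 16, 91546140 to 91552490 (mm10), had a mean count of 101 and a log2 fold change of -1.52 ± 0.20 (SE), 2.87-fold lower, with an adjusted p of 1.04e-11 in the authors' deposited table. An intergenic peak just upstream, at 91540850 to 91542890, was at -1.34 ± 0.32 (SE) with an adjusted p of 0.000576 there. Further upstream, a peak over a single-exon transcript at 91537400 to 91539390 was at -1.33 ± 0.44 (SE), with an adjusted p of 0.0252 in the deposited table. A peak at the second exon, at 91554250 to 91555930, was at -1.37 ± 0.46 (SE) with an adjusted p of 0.0281 in that table. The spread of these 4 values was smaller than the SE of any of them.

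One peak inside Ifngr2 did not share this shift. It lies at 91556170 to 91558480, 9.11 kb into the gene, and the authors' annotation measures it from a second Ifngr2 start downstream, 2843 bases away. Its mean count was 37.9 and its log2 fold change 0.44 ± 0.29 (SE), with a 95% interval of -0.13 to 1.01 and an adjusted p of 0.383 in the deposited table. The called exon peak ends 239 bases before it. In the surrounding 5 Mb window, 4 of 201 tested peaks had a fold change above 0 in the authors' deposited table, and this was one of them. The difference between this peak and the promoter peak of the same gene was not tested. The 2 untested peaks of the gene were at -0.73 and -0.54, with mean counts of 14.2 and 5.79 in the deposited table.

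Ifnar1, a chain of the type I interferon receptor that associates with the kinase Tyk2, fell at its promoter. The peak at chromosome 16, 91484190 to 91488000, had a mean count of 71.0 and a log2 fold change of -1.04 ± 0.23 (SE), 2.05-fold lower, with an adjusted p of 0.000251 in the authors' deposited table. Its other tested peak, upstream in an exon of another transcript at 91475110 to 91476810, was at -0.30 ± 0.35 (SE) with an adjusted p of 0.676 there. The 2 weak peaks within the gene were at -1.42 and -1.17 with mean counts of 8.72 and 8.51, and were not tested in the deposited table.

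Ifnar2, the other chain of that receptor and the one with the higher affinity for interferon, had its called peak upstream and not at its start. The intergenic peak at chromosome 16, 91358480 to 91364590, 8.19 kb before the start, had a mean count of 89.8 and a log2 fold change of -0.90 ± 0.21 (SE), with an adjusted p of 0.000729 in the authors' deposited table. The promoter peak at 91372070 to 91373970, which also overlaps a predicted long non-coding RNA gene in RefSeq, had a lower mean count of 30.1 and was at -0.39 ± 0.32 (SE), with a 95% interval of -1.03 to 0.24 and an adjusted p of 0.512 in that table. An intergenic peak 19.3 kb before the start was at -0.82 ± 0.36 (SE) with an adjusted p of 0.124 there. The 2 untested peaks were at -1.26 and -0.011 in the deposited table.

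The neighbours of the receptor genes shifted with them. Within 500 kb of the cluster on either side, 31 of 48 tested peaks assigned to other genes were lower in the authors' deposited table (64.6%) and 0 higher, with a median of -1.05. In the 5 Mb window from 90 to 95 Mb the share was 65.2% and the median -1.08, the fourth lowest of 485 windows genome-wide with at least 20 tested peaks, and over chromosome 16 as a whole 8.3% of tested peaks were lower and 39.3% higher. The shift was not local to the cluster. Every 5 Mb window from 60 to 100 Mb, with 3 to 201 tested peaks each, had a median between -1.60 and -1.08 and 0 peaks called higher in the deposited table, while the windows from 35 to 55 Mb had medians of 1.24 to 1.47. Of the cluster's own 10 tested peaks 6 were lower, so the share of the receptor genes was close to that of their surroundings. Il10rb, a receptor chain for interferon lambda and interleukin 10 that lies between Ifnar2 and Ifnar1, had a promoter value of -1.02 ± 0.24 (SE) in the deposited table. The promoters of the neighbours Tmem50b and Gart, a purine synthesis gene, were at -1.51 and -1.29 there. In this region 19 genes had a tested promoter peak, members included. The strongest such peak of each was called lower in all but Ifnar2 and Son, an RNA splicing gene. The Son peak, at -0.62 ± 0.42 (SE) in the deposited table, had a mean count of only 18.7. It lies at -2473 bases from the start in the authors' annotation, and so not over that start. The called neighbours ran from -1.70 at Eva1c to -0.80 at Paxbp1.

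**Figure D2:**
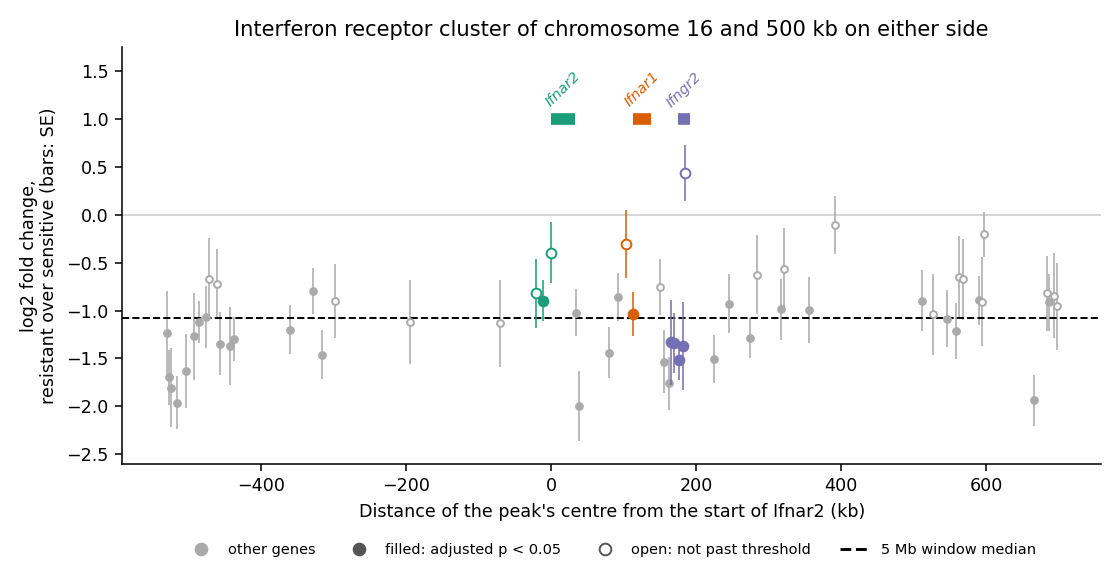
Points are the 58 tested peaks of the receptor cluster and of 500 kb on either side, by the distance in kb of the peak's centre from the start of Ifnar2, with log2 fold change and SE on the vertical axis. Bars at the top give the extents of Ifnar2, Ifnar1 and Ifngr2, and all tested peaks other than the one inside Ifngr2 at 0.44 lie below 0, scattered around the dashed window median of -1.08.

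To ask whether a peak differed from its neighbourhood, the median of all tested peaks in its 5 Mb window was subtracted and the remainder was tested against the deposited SE over all tested peaks. None of the 6 lower calls of the receptor genes remained, against 3.95% of all tested peaks called lower and 1.9% called higher by this rule, and 4.17% each way for the other genes within 500 kb. The Ifngr2 promoter was then at -0.44 ± 0.20 (SE; adjusted p = 0.240, from 0.0751 with the 20 nearest peaks of other genes to 0.659 with the trend with mean count removed as well, among the references within 10 Mb). The Ifnar1 promoter was at 0.041 ± 0.23 (SE) and the upstream Ifnar2 peak at 0.18 ± 0.21 (SE), with adjusted p of 0.995 and 0.898. The Ifnar2 promoter was at 0.68 ± 0.32 (SE) and did not pass (adjusted p = 0.282).

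The peak inside Ifngr2 was the one member peak called after this subtraction. It stood 1.52 ± 0.29 (SE) above its window, with an adjusted p of 2.31e-05, and kept its call with windows of 2 Mb and 10 Mb, at 1.54 and 1.57, and with the 20 nearest peaks of other genes. It was 1 of 6 among the 201 tested peaks of the window (2.99%) called higher by this rule. Against the median of the whole chromosome, which is 0.75, it was at -0.31 and not called.

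**Figure D3:**
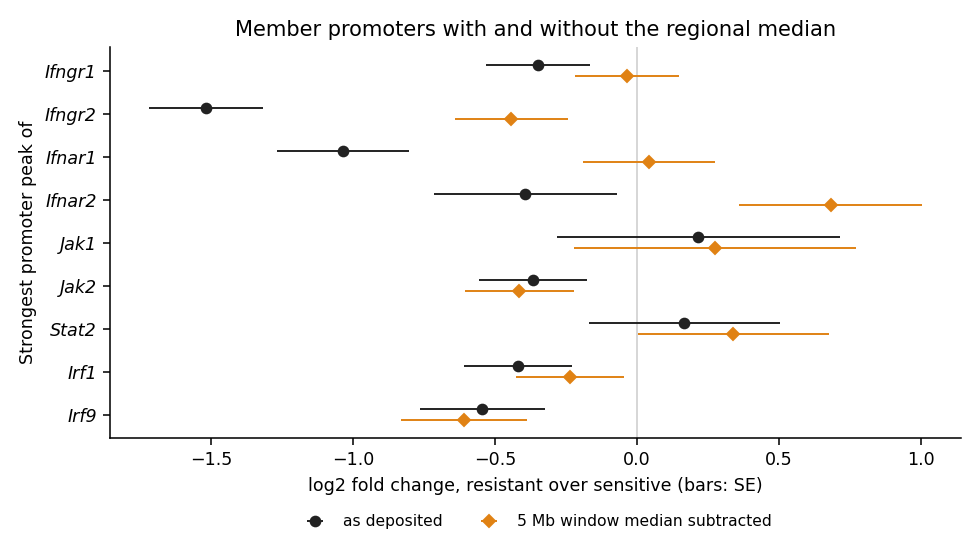
For each gene the strongest promoter peak is shown as deposited (circles) and after subtraction of its 5 Mb window median (diamonds), on an axis of log2 fold change with SE. Ifngr2 and Ifnar1 move from -1.52 and -1.04 to -0.44 and 0.041, while the genes off chromosome 16 move by at most 0.31.

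With each gene represented by its strongest promoter peak, 2 of the 9 promoters were lower, those of Ifngr2 and Ifnar1, and 0 were higher (authors' deposited table). Among all 15490 genes with a tested promoter peak 13.9% were lower and 3.58% higher. After the window subtraction 0 of the 9 were called, and 6.64% and 1.71% of all promoters. The median of the 9 was -0.39 as deposited and -0.03 after it, against -0.18 and -0.08 for all promoters. At an unadjusted p under 0.05, 4 of the 9 were lower and 0 higher in the deposited table, beside 23.6% and 6.85% of all promoters.

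Ifngr1, the ligand-binding chain of the interferon gamma receptor, lies on chromosome 10, apart from its partner Ifngr2. Its promoter peak at 19590700 to 19596910 was the strongest of all member peaks, with a mean count of 134, and was at -0.35 ± 0.18 (SE) with an adjusted p of 0.233 in the authors' deposited table. The 95% interval was -0.71 to 0.01. After the subtraction it was at -0.034 ± 0.18 (SE). An intergenic peak 20.1 kb upstream was at -0.47 ± 0.30 (SE) with an adjusted p of 0.354 in that table. All 3 other tested peaks together ranged from -0.72 to 0.24 in the deposited table, and none passed. Both chains of this receptor thus had promoter peaks of like strength, with values of -1.52 for Ifngr2 and -0.35 for Ifngr1 as deposited, and of -0.44 and -0.034 relative to their windows. The difference between the genes was not tested.

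Of the kinases, Jak1, which serves both receptor types, had the largest number of assigned peaks, 34 with 18 tested, and none of them was called. The values ran from -0.77 to 0.86 in the authors' deposited table, with 4 higher and 1 lower of the 18 at an unadjusted p under 0.05, beside 9.71% and 13.8% of all tested peaks. The 3 tested peaks upstream of the start were all positive, at 0.80 ± 0.33, 0.52 ± 0.23 and 0.86 ± 0.36 (SE), with adjusted p of 0.102, 0.140 and 0.102 in the deposited table. The middle one, at chromosome 4, 101291150 to 101294340, had the highest mean count of the locus, 70.0. It was called higher once the lowess trend over mean counts had been taken out (0.71 ± 0.23 (SE)). The middle and the farthest peak lie in an exon and an intron of another transcript in the authors' annotation. A further upstream peak, untested with a mean count of 11.3, was at -0.18. Within the gene the 12 tested peaks ranged from -0.77 to 0.70 in that table. The 3 tested peaks beyond its 3′ end, which lie over the neighbouring gene Raver2, ranged from -0.087 to 0.27. The peak over the start, at 101264210 to 101265620, was at 0.22 ± 0.50 (SE) with a 95% interval of -0.76 to 1.19 in the deposited table. Neither a rise nor a fall could be told at this error.

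**Figure D4:**
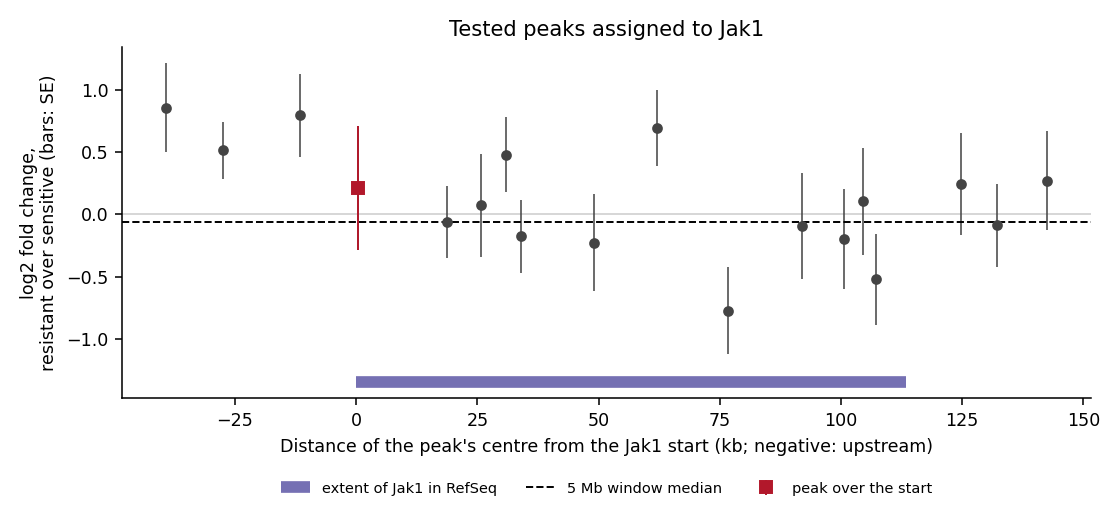
Points are the 18 tested peaks assigned to Jak1 by distance in kb from the start of the gene, negative values upstream, with log2 fold change and SE on the vertical axis. The 3 upstream peaks lie between 0.52 and 0.86, and the peak over the start has the widest error.

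Jak2, the kinase bound to the Ifngr2 chain, had 9 peaks with 5 tested, all 5 of them below 0 and none called. Of all 102173 tested peaks, 56720 were below 0. The promoter peak at chromosome 19, 29249850 to 29254570, with a mean count of 109.6, was at -0.37 ± 0.19 (SE) with an adjusted p of 0.226 in the authors' deposited table. An intergenic peak 9.06 kb upstream, 7031 bp wide with a mean count of 91.8, was at -0.44 ± 0.20 (SE), and another 16.9 kb upstream, with a mean count of 16.4, at -1.06 ± 0.44 (SE). Their adjusted p values were 0.144 and 0.0971 in that table. The window of Jak2 had a median of 0.05, so the subtraction left these values nearly as they were, at -0.41, -0.49 and -1.11, with adjusted p of 0.257, 0.158 and 0.133. With the trend with mean count removed instead, they were at -0.11, -0.21 and -1.08, and none was called.

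The transcription factor genes likewise gave no call in the authors' deposited table. Irf9, the DNA-binding subunit of the complex with Stat2, came nearest. Its promoter peak at chromosome 14, 55601930 to 55606010, which in RefSeq also overlaps the gene Rnf31, was at -0.55 ± 0.22 (SE) with a mean count of 73.6 and an adjusted p of 0.0884 there. With the 5 Mb window median subtracted it was at -0.61 ± 0.22 (SE; adjusted p = 0.0811), and over the other regional references the adjusted p ranged from 0.0276 to 0.227. It passed with windows of 2 Mb and 10 Mb and with the chromosome median, and also as deposited when peaks with a mean count under 50 were left out. A second promoter peak starting 29 bases further on was at 0.34 ± 0.37 (SE) in the deposited table, so the 2 neighbouring peaks had values of opposite sign, and neither passed.

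Irf1 had 3 broad peaks, with gaps of 329 and 289 bases between them. The promoter peak at chromosome 11, 53766590 to 53772370, was at -0.42 ± 0.19 (SE), the next at -0.43 ± 0.21 (SE) and the last at -0.22 ± 0.21 (SE). Their adjusted p values were 0.144, 0.178 and 0.599 in the authors' deposited table. The last peak is labelled 3′ UTR in the authors' annotation, but it starts at 53781020, beyond the gene's RefSeq end at 53778374. Mean counts of the 3 peaks were 112, 104 and 86.5. The 95% intervals of the 3 values overlap. After the window subtraction they were at -0.24, -0.25 and -0.035, and none passed.

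Stat2 had 2 peaks by symbol, and neither covers the start of the gene. The tested one, at chromosome 10, 128283260 to 128285570, was at 0.17 ± 0.34 (SE) with a mean count of 28.6 and an adjusted p of 0.835 in the authors' deposited table. The RefSeq start, and with it the response element letters shown above, lies under a peak that the table assigns to the neighbour Apof, at 128268440 to 128272620. That peak had a mean count of 80.8 and was at -0.26 ± 0.22 (SE), with an adjusted p of 0.533 there. Stat2 was thus not called at either site. For the other 8 genes the peak over the RefSeq start carried the gene's own symbol.

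Other genes of the pathway were taken from a list of 37, of which 35 had a tested promoter peak. By the deposited values 7 of these were lower and 1 higher, beside 13.9% and 3.58% of all promoters, and 10 were lower and 1 higher at an unadjusted p under 0.05, beside 23.6% and 6.85% of all promoters at that threshold. The median was -0.30, and -0.18 for all promoters. After the window subtraction 4 were lower and 0 higher, beside 6.64% and 1.71%, with a median of -0.15, and -0.08 for all promoters. The receptor chains were lower in 1 of 3 cases, Il10rb, which stood at 0.055 relative to its window.

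Tyk2, the kinase of the Ifnar1 chain, was at -0.19 ± 0.19 (SE), with an adjusted p of 0.600 in the authors' deposited table, and was not called. The promoter peak that gave this value lies at -2367 bases from the start in the authors' annotation, and so not over that start.

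Among the interferon regulatory factors, Irf8 and Irf2 were lower at their promoters. Irf8, known for its role in myeloid cells and in interferon gamma responses, was at -1.12 ± 0.24 (SE) with an adjusted p of 0.000156 in the authors' deposited table. Irf2, which competes with Irf1 for the same DNA sites, was at -0.91 ± 0.23 (SE) with an adjusted p of 0.00157 there. Irf8 kept its call relative to its window, at -0.94, and Irf2 did not, at -0.62 (adjusted p = 0.0927). Irf8 was called lower under every setting tried.

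Among feedback inhibitors, 17 promoters were tested, with 3 called lower and 1 higher by the deposited p, beside 13.9% and 3.58% of all promoters. Socs5 was at -0.98 ± 0.14 (SE), Ptpn1, a phosphatase that acts on Jak2 and Tyk2, at -0.55 ± 0.19 (SE) (named after its value was seen) and Cish, a STAT5 target, at -0.52 ± 0.17 (SE) there. Adjusted p values were 2.82e-09, 0.0393 and 0.0211. Socs5 and Cish remained lower relative to their windows, at -0.59 and -0.54, while with the trend with mean count removed Cish was at -0.24 and not called. Socs1, which inhibits Jak kinases after interferon signalling, was at 0.73 ± 0.16 (SE) with an adjusted p of 0.000159 in the deposited table. It lies on chromosome 16 in a window with a median of 0.68 and stood at 0.055 relative to it.

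**Figure D5:**
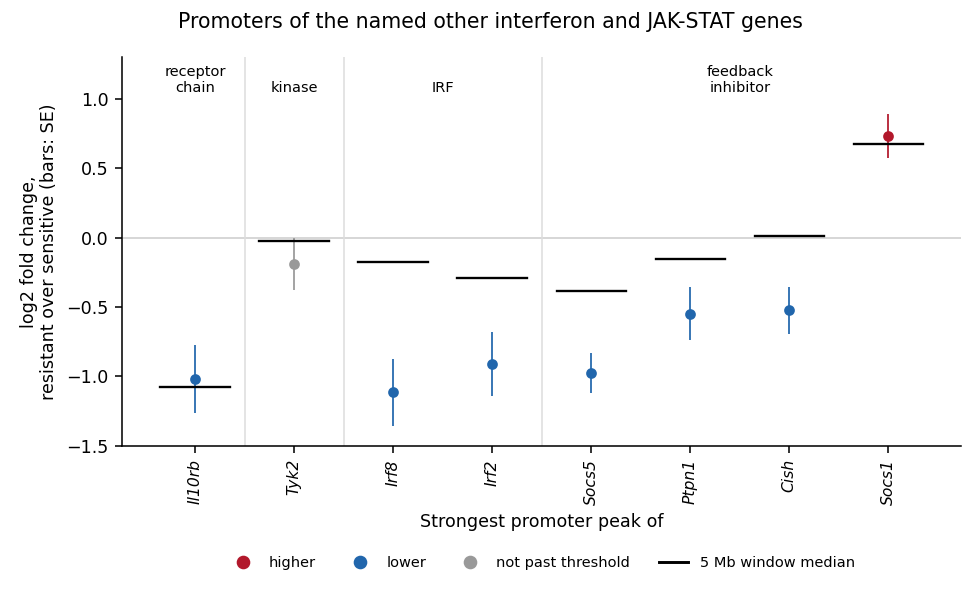
Points are the strongest promoter peaks of the other interferon and JAK-STAT genes named in the text, by role, with log2 fold change of resistant over sensitive organoids and SE on the vertical axis. Black ticks mark the 5 Mb window median of each gene, and those of Socs1 (0.68) and Il10rb (-1.08) lie close to the genes' own values.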

How the data were processed

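ATAC-seq libraries of organoids were compared, 3 resistant and 3 sensitive. The authors deposited 1 table of 214414 peaks on mm10. Per the submitters' processing notes, the tools, with no role stated, include Bowtie2 2.2.1, SAMtools 1.8, GATK 4.1.3, featureCounts, ChIPseeker 1.22.1 and DESeq2 1.26.0. The peak caller, duplicate removal and Tn5 shift were not given in the sources used here, and retained duplicates would make errors look smaller. Per the file headers, the authors' values are a mean normalized count (a signal), the log2 fold change with its SE, a score (Wald statistic) and a p-value, raw and adjusted. In the deposited table the score equals the fold change over its error (largest difference 8.7e-14), and adjusted values exist for 102173 peaks, the lowest with a mean count of 14.7. The 6 columns of values per library and 1 further column of scores were not used, since their names match no label. The planned count model was therefore replaced by the authors' own test. Spread between libraries was not computed here and enters only through the deposited SE.

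From these values were computed medians per 5 Mb window (chromosome medians in windows with under 20 tested peaks), the difference of each peak from its window, and a two-sided normal test with the deposited SE and Benjamini-Hochberg adjustment over all tested peaks. No error was added for the medians. The trend with mean count was a lowess curve (fraction 0.3). Intervals of 95% are the fold change with normal limits. Genes were named by rule: the members with their strongest promoter peak, every called peak and the strongest peak outside promoters, up to 4 higher and 6 lower pathway genes by smallest p with Il10rb and Tyk2 whatever their value, and promoters within 500 kb of the cluster. Some genes that the rule names are not reported here. The Ifngr2 peak called after subtraction was described at length after its value was seen. The members and lists were chosen with earlier results of these data known. Peak positions are as deposited, and promoter sequences and gene extents are from RefSeq on GRCm38.p6. The work used statsmodels 0.14.6, SciPy 1.17.1, matplotlib 3.10.9, NumPy 2.4.6 and pandas 2.3.3 under Python 3.11.15.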

Additional observations from a re-analysis of the deposited data

How the results depend on the processing

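By the deposited adjusted p, 6 member peaks were lower and 0 higher. The thresholds and filters reuse the same fold changes, so no called peak could change sign under them. The number higher stayed at 0 under each threshold and filter tried, while the number lower often fell. It was 5 at 2-fold or more. It was 4 at an adjusted p under 0.01, with no filter on low counts, with peaks up to 5 kb wide and without distal intergenic peaks. At a mean count of at least 50 it was also 4, with the Irf9 promoter peak of chromosome 14 among them. As 1 peak of Jak1 passed upward with the trend with mean count subtracted, the number higher was then 1. Without the members on chromosome 16, a choice made after seeing the data, 0 member peaks and 0 promoters were lower. Of the 2 lower promoters, 1 was left with peaks up to 5 kb wide, since the Ifngr2 promoter peak is wider. Of the 6 lower cluster peaks, 3 were left at a mean count of at least 50. The share of all tested peaks called under these settings is not given here, so these counts have no background beside them.

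With the windows of 2, 5 or 10 Mb, the 20 nearest peaks of other genes or the 5 Mb windows after the trend subtracted, 0 cluster peaks were lower and 1 was higher. The Ifnar1 promoter then stood at 0.061, 0.041, 0.093, 0.18 and 0.15, and the upstream Ifnar2 peak at 0.20, 0.18, 0.23, 0.32 and 0.32, the reverse of their deposited sign and not past the threshold. Over all members, 1 was higher and 0 lower with 5 Mb windows. There was 1 lower, Irf9, with 2 Mb and with 10 Mb windows, and 2 were higher with the trend also removed. With the chromosome median 0 were higher and 10 lower, 9 of them in the cluster, since the median of chromosome 16 is 0.75. Without chromosome 16 members 0 were higher after the 5 Mb subtraction. Among these references, the share of all tested peaks called is given for the 5 Mb windows alone, 3.95% lower and 1.9% higher. The counts with the other references have no such background beside them.

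For the other pathway genes, the 7 lower and 1 higher became 4 and 0 with windows of 5, 2 and 10 Mb, and 1 and 0 with the trend removed as well. With the chromosome median they were 5 and 0, and with the 20 nearest peaks 6 and 0. Of all promoters, 6.64% were lower and 1.71% higher with the 5 Mb windows. Such shares are not given for the other references, so those counts have no background beside them. The trend subtraction moved the median of all promoters from -0.18 to 0.00. Leaving out each library could not be run for the same reason as pairing. No paired analysis was possible because no column used here belongs to 1 library. Low counts limit 31 of the 74 member peaks, which have no adjusted p.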

Other observations

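The standard error of the peak over the Jak1 start in the authors' deposited table, 0.50 at a mean count of 42.7, was large for its strength. Among the 7336 tested peaks with a mean count within 10% of it the median SE was 0.28, and 0.0818% had an SE as large. The next tested member peak by this measure, also of Jak1, was matched by 11.1% of its like. The value for Jak1 at its start is therefore the least certain of the 9 promoters.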
